A study of Mus musculus with 6 samples.

Results

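Genes that mark the deep layers of the cortex were followed in RNA sequencing of medial prefrontal cortex (mPFC) from *Shank3* transgenic (TG) and wild-type (WT) mice. *Etv1*, *Parm1*, *Bcl11b* and *Fezf2* stood for layer 5, and *Tle4*, *Crym*, *Ccn2*, *Syt6* and *Foxp2* for layer 6. The genes were found by matching their symbols to the Ensembl identifiers of the deposited table, and 9 of 9 were present among its 18254 genes. The 6 libraries carry the names TG or WT with a number from 1 to 3, and each pooled mPFC RNA from a pair of male C57BL/6J mice aged 10 to 12 weeks, so that a replicate was a pool. The TG mice carry an EGFP-*Shank3* transgene and mildly overexpress this scaffold protein of the excitatory postsynapse, and the controls were their WT littermates. The values are read counts that the authors normalized between libraries in DESeq2, called normalized counts here. They summed to between 28363967 and 29447717 per library and are not whole numbers, so counting error could not be computed. The transgene was read first. *Shank3* had 17470, 19003 and 16310 normalized counts in the TG libraries in order of their numbers and 8374, 8173 and 6791 in those of WT, which matched the labels.

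The deep layers hold the neurons through which the cortex reaches the rest of the brain. Layer 5 contains pyramidal neurons that project below the cortex, to the brainstem and spinal cord, beside others that project to the opposite cortex and the striatum. Layer 6 contains corticothalamic neurons, and a thin sheet at its base, layer 6b, is a remnant of the embryonic subplate. In the mPFC these neurons carry its output to the thalamus, amygdala, striatum and midbrain. *Fezf2* and *Bcl11b* encode zinc finger transcription factors that specify subcerebral projection neurons, with *Fezf2* acting upstream of *Bcl11b*. *Tle4* encodes a corepressor of the Groucho family in corticothalamic neurons, and *Foxp2* a forkhead transcription factor of the same layer.

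Promoter sequences were shown for layer 5 genes whose highest value in each genotype was in the library numbered 3 (*Etv1*, *Parm1* and *Fezf2*) and for a pair of layer 6 genes, *Tle4* and *Syt6*, of which *Syt6* had the largest difference between genotypes. They come from RefSeq on GRCm38.p6, where 6 of the 9 genes had 10 windows of 250 bases before a transcription start, and *Crym*, *Ccn2* and *Foxp2* had none. For each gene the window nearest to its start in GENCODE M21 was used. Only the part of a window before the first exon base of GENCODE M21 inside it was printed, 5′ to 3′ on the strand of the gene, and *Bcl11b* was left out because its stretch was shorter than 150 bases. The stretches lie at chr12:38779832-38780081 on the plus strand for *Etv1*, at chr5:91517450-91517614 on the plus strand for *Parm1* and at chr14:12345960-12346115 on the minus strand for *Fezf2*. Those of *Tle4* and *Syt6* lie at chr19:14598184-14598433 on the minus strand and chr3:103574995-103575230 on the plus strand. The *Etv1* and *Fezf2* starts used by RefSeq lie 702 and 2324 bases inside the gene as GENCODE M21 draws it, so their stretches lie within the gene and downstream of its outermost start. Capitals mark the E-box motif CANNTG, the general recognition sequence of basic helix-loop-helix factors, which reads the same on both strands.
Etv1: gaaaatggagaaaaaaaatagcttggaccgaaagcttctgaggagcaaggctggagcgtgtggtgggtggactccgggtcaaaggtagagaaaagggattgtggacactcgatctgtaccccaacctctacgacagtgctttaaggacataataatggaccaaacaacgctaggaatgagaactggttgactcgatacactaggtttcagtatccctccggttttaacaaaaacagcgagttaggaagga
Parm1: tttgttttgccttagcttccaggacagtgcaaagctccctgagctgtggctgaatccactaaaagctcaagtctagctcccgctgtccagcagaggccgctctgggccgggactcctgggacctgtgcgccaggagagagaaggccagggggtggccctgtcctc
Fezf2: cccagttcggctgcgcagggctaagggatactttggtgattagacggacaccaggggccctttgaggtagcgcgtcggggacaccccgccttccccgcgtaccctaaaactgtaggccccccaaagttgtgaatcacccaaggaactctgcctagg
Tle4: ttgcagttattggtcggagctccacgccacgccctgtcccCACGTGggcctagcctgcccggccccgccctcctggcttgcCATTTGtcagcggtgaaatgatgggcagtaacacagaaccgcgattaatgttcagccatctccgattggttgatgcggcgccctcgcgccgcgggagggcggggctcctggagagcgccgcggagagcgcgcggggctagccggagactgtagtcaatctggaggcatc
Syt6: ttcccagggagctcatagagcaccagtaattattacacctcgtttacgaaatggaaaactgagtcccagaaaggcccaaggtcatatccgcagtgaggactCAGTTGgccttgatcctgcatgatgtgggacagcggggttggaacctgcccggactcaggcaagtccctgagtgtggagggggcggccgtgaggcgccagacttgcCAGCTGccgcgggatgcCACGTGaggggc
The printed stretches held 0 matches for *Etv1*, *Parm1* and *Fezf2*, 2 for *Tle4* and 3 for *Syt6*. One match each in *Tle4* and *Syt6* was CACGTG, which is itself a form of CANNTG. Over whole 250-base windows, 66.2% of the 32841 promoters of the reference held CANNTG and 6.02% held CACGTG. The T-box motif AGGTGTGA, the Sox motif AACAAT and the TATA motif TATAAA, searched on both strands, had no match in the windows nearest to the starts of the 6 genes, against 1.12%, 9.43% and 12.4% of all windows. Over its whole window *Parm1* held 1 CANNTG, in the exonic part that was not printed, and those of *Etv1* and *Fezf2* used here held 0. The counts depended on the start used. Another *Etv1* window held 3 CANNTG, 1 AACAAT and 1 TATAAA, and another *Tle4* window held 0 CANNTG and 1 AACAAT. The other *Syt6* windows held 3 and 1 CANNTG. These matches describe letters only.

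All 9 genes were well above the floor of 3 normalized counts in every library and passed the filter on low values, a mean of at least 5 normalized counts, under which 16714 genes were tested. Corrected for length, the order of their levels was *Crym*, *Parm1*, *Fezf2*, *Ccn2*, *Tle4*, *Bcl11b*, *Etv1*, *Syt6* and *Foxp2*. The means over the 6 libraries were 383, 366 and 361 normalized counts per kilobase of exon for the first 3 genes and 115 and 24 for *Syt6* and *Foxp2*. Neighbours in this order overlapped in their ranges, except *Syt6* and *Foxp2*. *Syt6* ranged from 82.6 to 162 normalized counts per kilobase and *Foxp2* from 17.5 to 28.6. All exons of a gene were used for its length, and *Foxp2* and *Etv1* have the longest of these models, 16.35 and 13.3 kilobases.

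None of the 9 genes differed between *Shank3* TG and WT beyond the spread between libraries. In every one of them the TG and WT values overlapped. Log2(normalized count + 1) was tested with limma's two-sided moderated test across all genes, and an adjusted p-value (Benjamini-Hochberg) under 0.05 was the threshold. The number past the threshold was 0 of 9, in both directions, and over all tested genes it was 0 as well (0.0%). By limma, 0 of 9 genes had an unadjusted p-value under 0.05, against 336 of the 16714 tested (2.01%). Values of TG and WT that did not overlap were found for 0 of 9 genes, against 6.02% of all tested genes. *Shank3* itself had a log2 fold change of 1.18 ± 0.10 (SE) and an adjusted p-value of 0.0643 by limma. Of the 9 log2 fold changes 3 were positive and 6 negative, with a median of -0.077, against -0.00368 over all tested genes. The sign of that median rested on single libraries, since it was 0.049 without TG-1 and 0.068 without WT-3, and its size did too, being -0.18 without TG-3, -0.16 without WT-1, -0.15 without WT-2 and -0.037 without TG-2. Because bulk tissue was sequenced, fewer cells of a type and less RNA per cell cannot be told apart in any of these values.

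**Figure D1:**
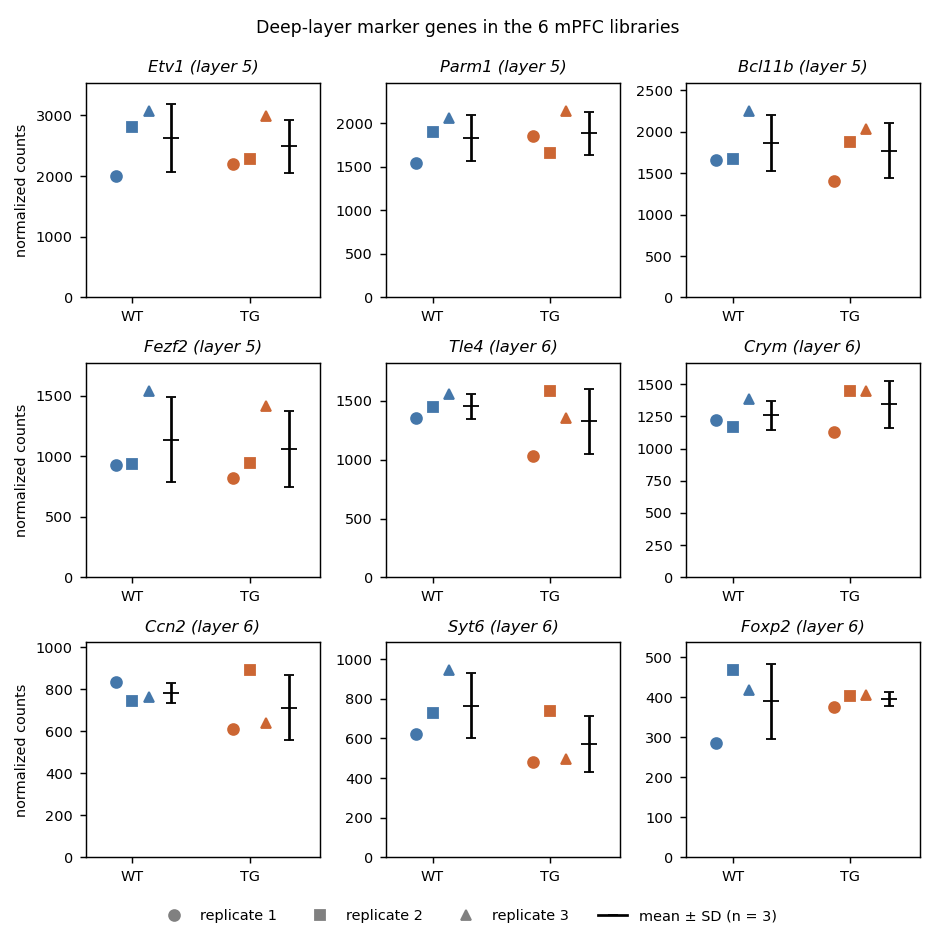
Normalized counts (y axis, from 0) of the 9 deep-layer genes in the WT and TG libraries, 1 panel per gene. Symbols are single libraries by replicate number, and the bars beside them are the mean ± SD (n = 3). The TG and WT points overlap in every panel, and the triangles of replicate 3 lie highest in both genotypes for *Etv1*, *Parm1*, *Bcl11b*, *Fezf2* and *Crym*.

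The layer 5 regulators came first, with positions given on GRCm38. *Fezf2* (ENSMUSG00000021743, chromosome 14, bases 12342094 to 12348189) had 819.4, 947.7 and 1414 normalized counts in TG and 932.3, 935.2 and 1544 in WT. TG-3 and WT-3 were thus far above the other 4 libraries, and within each replicate number the genotypes lay close together. The mean was 1060 ± 313 (SD, n = 3) in TG and 1137 ± 352 in WT, and the log2 fold change was -0.098 ± 0.25 (SE) with an interval from -0.68 to 0.49. *Bcl11b* (ENSMUSG00000048251, chromosome 12, bases 107910403 to 108003602), also known as Ctip2 and needed for corticospinal axon growth, had 1402, 1875 and 2037 normalized counts in TG and 1663, 1676 and 2256 in WT. Here too the library numbered 3 was the highest of each genotype, and TG-1 was the lowest of all. Its log2 fold change was -0.077 ± 0.17 (SE), from 1865 ± 339 in WT to 1771 ± 330 in TG (SD, n = 3).

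*Etv1* (ENSMUSG00000004151, chromosome 12, bases 38779380 to 38870484), an ETS transcription factor also called Er81, had 2199, 2280 and 2991 normalized counts in TG and 2004, 2810 and 3079 in WT. WT-1 was the lowest library and WT-2 lay close to those numbered 3, so the WT values spanned the TG values on both sides. The means were 2490 ± 436 in TG and 2631 ± 560 in WT (SD, n = 3), and the log2 fold change was -0.070 ± 0.18 (SE). *Parm1* (ENSMUSG00000034981, chromosome 5, bases 91517615 to 91626894), which encodes a mucin-like membrane protein, had 1856, 1651 and 2142 normalized counts in TG and 1543, 1892 and 2058 in WT. It was the layer 5 gene with the smallest spread, its highest library having 1.39 times the lowest. Its means were 1883 ± 246 in TG and 1831 ± 263 in WT (SD, n = 3), and the log2 fold change was 0.043 ± 0.13 (SE).

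In layer 6, *Syt6* had the largest difference of the 9 genes. It encodes a synaptotagmin, a membrane protein of vesicle trafficking, and is read as a marker of corticothalamic neurons. *Syt6* (ENSMUSG00000027849, chromosome 3, bases 103575231 to 103645569) had 481.4, 736.6 and 497.2 normalized counts in TG and 622, 730.8 and 943.1 in WT. TG-1 and TG-3 were below every WT library, but TG-2 lay above WT-1 and WT-2, and WT-3 was far above all the others. The mean was 571.7 ± 143 in TG and 765.3 ± 163 in WT (SD, n = 3), and the log2 fold change was -0.43 ± 0.20 (SE). The interval of -0.90 to 0.05 reached from a level of 0.536 times that of WT to 1.03 times. The unadjusted p-value was 0.0707 and the adjusted p-value 1 by limma. The exact two-sided permutation test of 3 libraries against 3 gave p = 0.3, where 0.1 is the smallest value it allows.

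The replicate numbers were taken to pair the libraries, although the labels do not say what a number stands for. With them as a block the unadjusted p-value of *Syt6* by limma was 0.0212, with an adjusted p-value of 0.887. With a term for the libraries numbered 3 alone, its unadjusted p-value by limma was 0.0485. The blocked fit gave 1 of 9 genes an unadjusted p-value under 0.05, where 4.98% of all tested genes had one. After adjustment the blocked fit called 0 of the 9 genes and *Shank3* alone among all genes (0.00598%). By replicate number, TG minus WT of *Syt6* on the log2 scale was -0.369, 0.0114 and -0.922, so that the pair numbered 3 held most of the difference. Without both libraries numbered 3 the log2 fold change was -0.18. An exon of *Syt6* shares 505 bases with *Atg4a-ps* on the opposite strand, and the strand setting of the quantification was not given in the sources used here.

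*Tle4* (ENSMUSG00000024642, chromosome 19, bases 14448150 to 14598051) had 1034, 1588 and 1355 normalized counts in TG and 1352, 1448 and 1559 in WT. TG-1 was the lowest library and TG-2 the highest, so the TG libraries enclosed the WT libraries. The means were 1325 ± 278 in TG and 1453 ± 103 in WT (SD, n = 3), and the log2 fold change was -0.15 ± 0.15 (SE). *Ccn2* (ENSMUSG00000019997, chromosome 10, bases 24595442 to 24598683), a secreted matrix protein also called connective tissue growth factor and a marker of layer 6b, had 609.1, 889.1 and 639.5 normalized counts in TG and 833.9, 743.3 and 764.9 in WT. It showed the same order within TG, with TG-2 above and TG-1 and TG-3 below every WT library. Its means were 712.6 ± 154 in TG and 780.7 ± 47.3 in WT (SD, n = 3), and the log2 fold change was -0.15 ± 0.15 (SE). Its exons share 665 bases with *Gm15270* on the opposite strand.

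*Crym* (ENSMUSG00000030905, chromosome 7, bases 120186380 to 120202111), which encodes mu-crystallin, a cytosolic protein that binds thyroid hormone, had 1131, 1443 and 1450 normalized counts in TG and 1220, 1170 and 1385 in WT. It varied least of the 9 genes, the highest library having 1.28 times the lowest. Its means were 1342 ± 182 in TG and 1258 ± 112 in WT (SD, n = 3), and the log2 fold change was 0.087 ± 0.12 (SE). *Foxp2* (ENSMUSG00000029563, chromosome 6, bases 14901349 to 15441977) had 374.8, 403.6 and 406 normalized counts in TG and 285.4, 467 and 418.7 in WT. The 3 TG libraries lay close together, between the low WT-1 and the other WT libraries. Its log2 fold change was 0.046 ± 0.18 (SE), and its means were 394.8 ± 17.4 in TG and 390.4 ± 94 in WT (SD, n = 3).

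**Figure D2:**
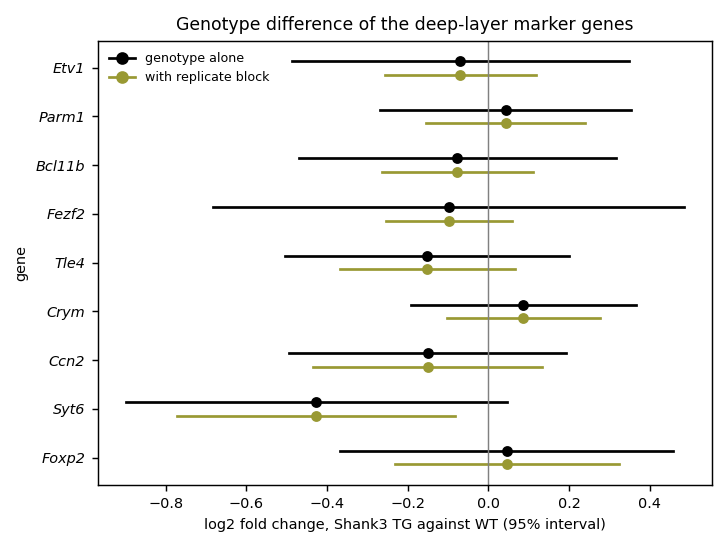
Log2 fold change of TG against WT (x axis) for each deep-layer gene (y axis) with its 95% interval from limma, for the fit with genotype alone (black, upper) and with replicate number added as a block (olive, lower). Every black interval crosses 0, and that of *Syt6*, from -0.90 to 0.05, lies furthest from it. With the block *Syt6* spans -0.77 to -0.08, and its adjusted p-value by limma was 0.887.

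The intervals show what 3 libraries of each genotype could resolve. *Crym* was bounded to between 0.875 and 1.29 times its WT level, and *Fezf2* to between 0.623 and 1.4 times. By limma the adjusted p-value was 1 for each of the 9 genes, and with the replicate block it was 0.996 for each gene other than *Syt6*. Pair by pair, TG was higher than WT at 1 of 3 replicate numbers for *Etv1*, *Bcl11b*, *Fezf2*, *Tle4*, *Ccn2*, *Syt6* and *Foxp2*, and at 2 of 3 for *Parm1* and *Crym*. No gene was higher, or lower, at all 3.

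The 4 layer 5 genes were highest in the libraries numbered 3 of both genotypes, a pattern chosen for description after the values were seen. The library numbered 3 was the highest of its genotype, in TG and in WT alike, for 4 of 4 layer 5 genes and for *Crym*, 5 of the 9 genes. This held for 24.9% of all tested genes, and the reverse, the library numbered 3 lowest in both genotypes, for 25.3% of them and 0 of the 9. Among the 11 other layer 5 markers the library numbered 3 was highest in both genotypes for 4, so that 8 of 15 layer 5 genes had this order. On the log2 scale *Fezf2* in replicate 3 exceeded the mean of replicates 1 and 2 by 0.681 in TG and 0.725 in WT. For *Etv1* the excess was 0.417 in TG and 0.376 in WT. For *Bcl11b* it was 0.329 and 0.434, and for *Parm1* 0.291 and 0.268. Each of these was larger in size than the genotype difference of the same gene. Of the 5 layer 6 genes *Crym* alone shared this pattern, with 0.182 in TG and 0.212 in WT. *Tle4* had 0.0807 in TG and 0.156 in WT, *Foxp2* had 0.062 and 0.197, *Ccn2* had -0.202 and -0.0414, and *Syt6* had opposite signs in the genotypes, -0.26 in TG and 0.484 in WT.

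**Figure D3:**
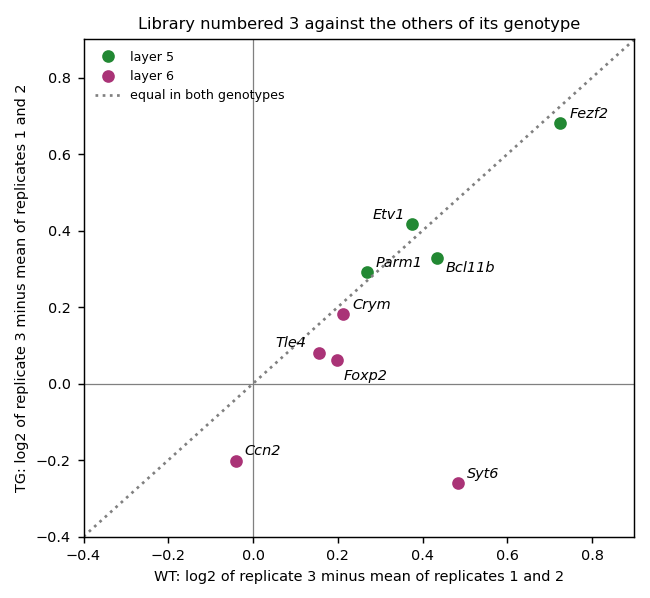
Log2 level in replicate 3 minus the mean of replicates 1 and 2, in WT (x axis) and in TG (y axis), for the 4 layer 5 genes (green) and the 5 layer 6 genes (purple). The dotted line marks equal values. The layer 5 genes lie near the line and above 0 in both genotypes, from *Parm1* to *Fezf2* at 0.725 and 0.681, and *Syt6* lies far from it at 0.484 and -0.26.

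The spread within a genotype was large for several of these genes. Among the 10948 genes averaging at least 200 normalized counts, the median SD within genotypes on the log2 scale was 0.128. *Fezf2* had 0.413, which was at or above 97.2% of those genes, and *Syt6* had 0.322, at 94.3%. *Crym*, the lowest of the 9, had 0.17, at 70.2%. The other 6 lay between 79.3% and 91.8%.

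TG-1 held the lowest values of most of these genes. It was the lowest of all 6 libraries for *Tle4*, *Crym*, *Ccn2*, *Syt6*, *Bcl11b* and *Fezf2*, 6 of the 9 genes, against 13.8% of all tested genes. This library too was singled out after the values were seen. The other markers of layers 6 and 6b were read for comparison. With the 5 layer 6 genes above they make 15 genes, of which TG-1 was the lowest library for 11. The median deviation of these 15 genes from their mean over the libraries was -0.314 on the log2 scale in TG-1, 0.2 in TG-2 and between -0.00135 and 0.126 in the others. For the 4 layer 5 genes followed here it was -0.279 in TG-1, but WT-1 and TG-2 were low as well, with -0.226 and -0.154. For their 5 layer 6 counterparts it was -0.281 in TG-1, -0.0641 in WT-1 and 0.18 in TG-2. In TG-1 it was -0.303 for the 6 near-projecting genes, of which TG-1 was the lowest library for 4. For the 11 other layer 5 genes it was -0.071 there, and TG-1 was the lowest library for 3 of them. Other cell types moved in the same library. TG-1 had the lowest value for 5 of 5 oligodendrocyte genes and for 0 of 10 upper-layer genes. The oligodendrocyte genes summed to 31554 normalized counts in TG-1, and the upper-layer genes to 29149 there against 22530 to 25395 in the other libraries. The part of these differences in the values of the deep-layer genes was not tested.

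**Figure D4:**
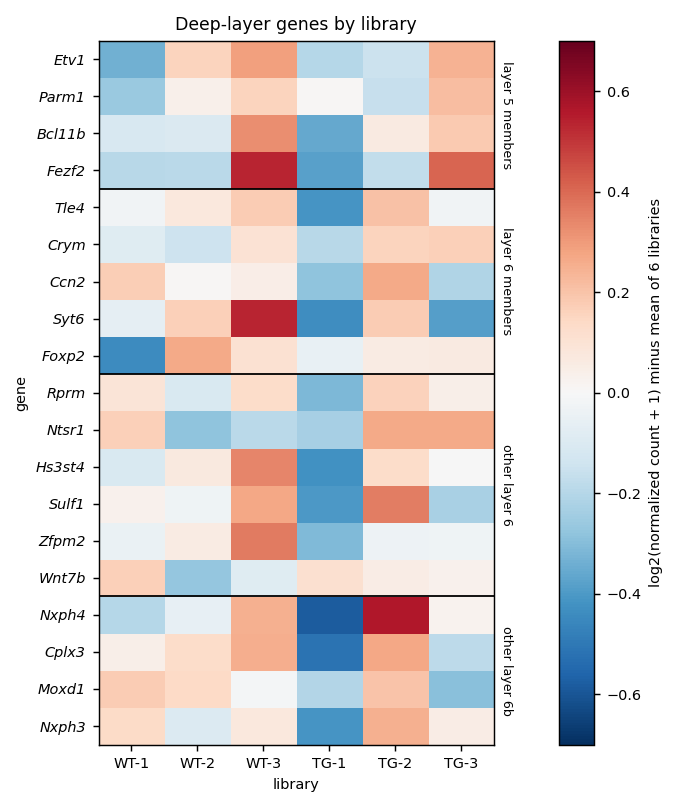
Log2(normalized count + 1) minus its mean over the 6 libraries (colour, blue below and red above the mean) for the 9 deep-layer genes and the other markers of layers 6 and 6b (rows), by library (columns). *Fezf2* is red in both WT-3 and TG-3, and the TG-1 column holds the lowest value for 11 of the 15 genes of layers 6 and 6b, with a median of -0.314.

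Further markers of the same layers were followed as lists, described by their counts and medians. Of 11 other layer 5 genes, 3 were higher and 8 lower in TG, with a median log2 fold change of -0.035, which lay between -0.10 without TG-3 and -0.0046 without WT-3. *Pcp4*, a calmodulin regulator of subcerebral neurons, had 4639 ± 151 normalized counts in TG and 4770 ± 512 in WT (SD, n = 3). *Sulf2*, a heparan sulfate sulfatase, had 3979 ± 307 and 4115 ± 148, and *Crim1*, a membrane protein of corticospinal neurons, 1825 ± 119 and 1786 ± 145. Of 6 genes of near-projecting neurons, which sit at the border of layers 5 and 6, 2 were higher and 4 lower, with a median of -0.13. *Tshz2*, a zinc finger gene of these cells, had 794, 972.3 and 1218 normalized counts in TG and 1046, 960.7 and 1735 in WT, again highest in the libraries numbered 3 of both genotypes. Its log2 fold change was -0.30 ± 0.24 (SE), and its unadjusted p-value by limma was 0.253, or 0.017 with the replicate block. *Lypd1* had a log2 fold change of -0.084 ± 0.17 (SE).

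Of 6 other corticothalamic genes, 2 were higher and 4 lower in TG, with a median log2 fold change of -0.13. *Hs3st4*, a heparan sulfate sulfotransferase gene, had 1009, 1480 and 1353 normalized counts in TG and 1258, 1418 and 1714 in WT. TG-1 was its lowest and WT-3 its highest library, as for *Syt6*. *Rprm* had 1101 ± 181 normalized counts in TG and 1151 ± 96.7 in WT, and *Wnt7b*, a secreted signal, 1064 ± 31.9 and 982.5 ± 150 (SD, n = 3). Of 4 other genes of layer 6b, 1 was higher and 3 lower, with a median of -0.14. *Cplx3*, the complexin of subplate neurons, had 261.9, 452.3 and 330.1 normalized counts in TG and 385.7, 410 and 447.2 in WT, and the log2 fold change was -0.28 ± 0.19 (SE). TG-2 was its highest library and TG-1 its lowest, the order that *Tle4* also had. Without TG-1 the medians were 0.053 for the near-projecting, 0.018 for the corticothalamic and 0.0081 for the layer 6b genes, so that their sign turned. Without TG-2 they were -0.23 for the corticothalamic and -0.31 for the layer 6b genes, and without WT-3 they were -0.0045 for the near-projecting and -0.054 for the corticothalamic genes. Without TG-3 the near-projecting median was -0.20. In each of these lists 0 genes passed the threshold by limma in either direction, with or without the replicate block. In the blocked fit 2 of the 6 corticothalamic genes had unadjusted p-values under 0.05 by limma, against 4.98% of all tested genes. Without the block 0 of the 6 had one. They were *Hs3st4* with 0.0498 and *Zfpm2*, named after its value was seen, with 0.0209, and both were lower in TG. Their adjusted p-values by limma were 0.996 and 0.887. The blocked fit gave such unadjusted p-values to 0 of 11 other layer 5 genes and 0 of 4 other layer 6b genes. It gave them to 1 of 6 near-projecting, 3 of 10 upper-layer and 5 of 5 oligodendrocyte genes.

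The regulators around these genes were read next. Of 8 transcriptional regulators of projection neuron fate, 3 were higher and 5 lower in TG, the median log2 fold change being -0.028, and 0 passed the threshold. That median was 0.11 without WT-3, 0.016 without TG-2 and -0.12 without TG-3. *Tbr1*, the T-box factor of layer 6 that represses *Fezf2* there, had 4393 ± 116 normalized counts in TG and 4517 ± 170 in WT (SD, n = 3). It varied far less between libraries than *Fezf2* did. *Neurod2*, a helix-loop-helix factor of excitatory neurons, had 2405, 2557 and 3869 normalized counts in TG and 2553, 2488 and 4400 in WT, so TG-3 and WT-3 stood above the other 4 libraries, as for *Fezf2*. For 6 of these 8 regulators the library numbered 3 was the highest in both genotypes. *Ski*, a transcriptional corepressor, had a log2 fold change of -0.15 ± 0.10 (SE).

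Of 14 genes of the same families as the 9, 13 were in the table, with 6 higher and 7 lower in TG, a median log2 fold change of -0.016, and 0 passed the threshold. The sign of this median turned without WT-3 (0.050), TG-2 (0.041) or TG-1 (0.0097), and it was -0.079 without WT-2. *Etv5*, the relative of *Etv1*, had 4115 ± 350 normalized counts in TG and 4156 ± 256 in WT, and *Bcl11a*, the relative of *Bcl11b*, 2555 ± 351 and 2769 ± 491 (SD, n = 3). *Foxp1* had 3295 ± 558 and 3181 ± 768. Because *Crym* binds thyroid hormone, 8 genes of its supply and response were read, of which 5 were higher and 3 lower, with a median of 0.013, or -0.047 without WT-1, and 0 past the threshold. *Thra*, the main receptor, had 19269 ± 472 normalized counts in TG and 18731 ± 1101 in WT (SD, n = 3). *Klf9*, a response gene, had 4710, 4859 and 8137 in TG and 4698, 5608 and 9316 in WT, again highest in the libraries numbered 3. *Dio2*, which activates the hormone, went the other way, with 2626 in TG-3 and 2694 in WT-3 and between 3777 and 4277 in the other 4 libraries.

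The nearest profile among all tested genes was found for the genes named here, by the root mean square difference over the 6 libraries of log2 values centred on their mean. *Fezf2* was nearest to *Celf4*, an RNA-binding protein of neurons, with a difference of 0.036, while *Fezf2* itself varied by 0.341 about its mean. *Celf4* had 12495, 13738 and 21276 normalized counts in TG and 13414, 13311 and 22988 in WT. *Tle4* was nearest to *Sema5a*, an axon guidance protein, at 0.044, and *Bcl11b* to *Traf5* at 0.052. *Etv1* was nearest to *Dcaf12l2* at 0.034, *Crym* to *Tceanc2* at 0.031 and *Ccn2* to *Gm7694* at 0.048. *Syt6* and *Foxp2* had the least close partners, *Has1* at 0.073 and *Klhl41* at 0.068, both low genes, of which *Has1* reached at most 33.57 normalized counts in a library. With 6 libraries and 16714 genes, a near profile is a description. Among the 9 genes themselves the nearest were *Etv1* and *Parm1* at 0.116 and *Bcl11b* and *Crym* at 0.124, and the furthest were *Fezf2* and *Ccn2* at 0.406.

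Some of the 9 genes are also used by other cells that a dissection of the mPFC could hold. *Bcl11b* and *Foxp2* are expressed by striatal projection neurons, and *Ccn2* by vascular and meningeal cells. Of 10 striatal genes, 4 were higher and 6 lower in TG with 0 past the threshold, and they summed to between 5308 and 6065 normalized counts in TG and between 5125 and 5827 in WT. None of the 10 was at 0 in a library. Of 4 endothelial genes, 2 were higher and 2 lower, with sums of 4841 to 6295 in TG and 4615 to 6938 in WT. The highest sums were in TG-3 and WT-3, where *Pecam1* had 2359 and 2560 normalized counts, against 657.1 to 810.8 in the other libraries. Of 4 mural genes, 2 were higher and 2 lower, with sums of 1746 to 2333 in TG and 1909 to 2281 in WT. Of 6 leptomeningeal genes, 6 were higher in TG with 0 past the threshold, and they summed to between 3603 and 4276 normalized counts in TG and between 3179 and 3661 in WT. *Ccn2*, in contrast, had a negative log2 fold change. None of these vascular and meningeal genes was at 0 in a library, and their part in the values of *Ccn2*, *Bcl11b* and *Foxp2* was not tested.

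Against other layers and cell types, the deep-layer medians were on the low side of all genes. The median log2 fold change was -0.073 for the 4 layer 5 genes and -0.15 for the 5 layer 6 genes. It was 0.099 for 10 genes of the upper layers, of which 8 were higher and 2 lower in TG, with 0 past the threshold. Of these 10 genes 2 had an unadjusted p-value under 0.05 by limma, against 2.01% of all tested genes. TG and WT did not overlap for 2 of the 10, against 6.02% of all tested genes. *Calb1*, a calcium-binding protein of upper-layer neurons, had 3949, 2908 and 3860 normalized counts in TG and 3212, 3194 and 3007 in WT. *Rasgrf2*, an exchange factor of the same layers, had 6291 ± 1092 in TG and 5763 ± 475 in WT (SD, n = 3). Without TG-1 the medians were 0.059 for the layer 5 genes, 0.016 for the layer 6 genes and 0.0088 for the upper layers, so the sign of both deep-layer medians rested on that library. Other libraries moved them further from 0. Without TG-2 the median was -0.29 for the layer 6 genes and 0.19 for the upper layers, and for the layer 5 genes it was -0.20 without TG-3 and -0.19 without WT-1. The sign for the layer 5 genes also rested on WT-3, without which their median was 0.1. Of 5 oligodendrocyte genes, 0 were higher and 5 lower, with a median of -0.44 and sums of 31554 to 39839 in TG and 44333 to 51189 in WT. By limma 0 of the 5 passed the threshold. This difference in oligodendrocyte genes went with the genotype, and its part in the deep-layer values was not tested.

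**Figure D5:**
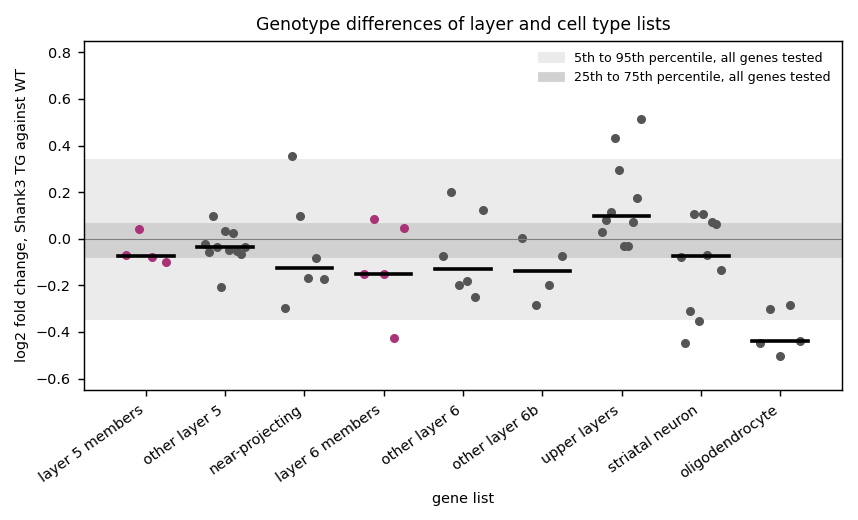
Log2 fold change of TG against WT (y axis) of single genes (points) in lists of layer and cell type markers (x axis), with the median of each list as a bar and the 9 deep-layer genes in purple. The grey bands span the 25th to 75th and the 5th to 95th percentiles of all tested genes, the latter from -0.346 to 0.337. Of the 9 deep-layer genes only *Syt6*, at -0.43, lies outside the wider band, and the oligodendrocyte list has the lowest median, -0.44.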

How the data were processed

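Poly(A) RNA from 3 *Shank3* TG and 3 WT mPFC pools was sequenced from stranded libraries. The authors quantified transcripts with Salmon 0.9.1 on GRCm38 with GC bias correction, summed them to genes with tximport and normalized them in DESeq2 1.19.11 under R 3.6.0. The deposited values are this signal, normalized counts for 18254 genes, of which 18215 were named from GENCODE M21. Only 0.228% of them were whole within 0.001, so no count model was fitted. The library sums are sums after normalization, not sequencing depth. The table held 0 columns without a sample.

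The 16714 genes averaging 5 or more normalized counts were tested in R 4.3.3 with limma 3.58.1 on log2(normalized count + 1), with genotype alone, a mean-variance trend, two-sided tests, Benjamini-Hochberg adjustment over all tested genes and a threshold of 0.05. The pseudocount makes fold changes of low genes smaller. The fit was run on simulated data with independent noise in each library, which lacked the deviations shared by libraries of the same number. Intervals are 95% and come from limma, and p-values measure the spread between pools. Levels per kilobase used the union of GENCODE exons.

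The blocked fit held the replicate number as a term. Libraries with the same number deviated together from their genotype means. Their correlation across genes was 0.30, 0.33 and 0.62, against at most 0.27 for other combinations. The numbers were therefore taken to pair them, which the labels do not state. Numbers 1 and 2 were weakly told apart, since TG-1 with WT-2 had 0.27 and TG-2 with WT-1 had 0.23. The alternatives were other pseudocounts, filters, normalizations and variance settings, the block, each library left out in turn and both libraries numbered 3 left out, and a term for those libraries, which was added once the data were known.

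The 9 genes, the lists and the tests were chosen with earlier results of these data known. Besides the 9 genes, at most the 3 most abundant genes of each list were named, any gene of a list past the threshold, the nearest profile to a gene of the 9, and *Shank3*. An exception was *Zfpm2*, named after its unadjusted p-value in the blocked fit was seen. The lists were other layer 5, near-projecting, corticothalamic, layer 6b, fate regulators, relatives of the 9 genes, thyroid hormone, upper layers, excitatory neuron, striatal neuron, claustrum, endothelial, mural, leptomeningeal and oligodendrocyte. Some results on single genes are not reported here.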

Additional observations from a re-analysis of the deposited data

How the results depend on the processing

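Over 17 alternatives, none of the 153 values of the 9 genes passed the threshold, and *Syt6* had the smallest adjusted p-value by limma, 0.887 with the replicate block. The block changed no call of the 9 genes. *Crym*, *Ccn2* and *Syt6* kept their sign in all 17 alternatives. With single libraries left out, the log2 fold change ranged from -0.25 to 0.056 for *Etv1*, from -0.075 to 0.13 for *Parm1*, from -0.19 to 0.083 for *Bcl11b*, from -0.33 to 0.14 for *Fezf2*, from -0.29 to 0.016 for *Tle4*, from -0.16 to 0.19 for *Foxp2* and from -0.62 to -0.27 for *Syt6*. *Crym* ranged from 0.026 without TG-3 to 0.205 without TG-1, and *Ccn2* from -0.32 without TG-2 to -0.048 without TG-1. The sign turned without TG-1 for *Etv1* (0.01), *Bcl11b* (0.083), *Fezf2* (0.07) and *Tle4* (0.016), without WT-3 for *Etv1* (0.056), *Bcl11b* (0.07) and *Fezf2* (0.14), without WT-1 for *Parm1* (-0.075) and *Foxp2* (-0.16), and without TG-3 for *Parm1* (-0.05). The cause was not tested. Without TG-2, *Ccn2* and *Syt6* had unadjusted p-values of 0.0182 and 0.0108 by limma, and without WT-1 *Syt6* had 0.0373, with adjusted p-values of 1. The number of genes past the threshold was 0 in the reported fit and 1, *Shank3*, with the replicate block, upper quartile rescaling, the robust option, both libraries numbered 3 left out and the term for those libraries. With each library left out it was between 0 and 1. Genes with an unadjusted p-value under 0.05 numbered 336, and 833 with the replicate block, 717 with the term and 219 without TG-1. With 3 pools per genotype, differences within the printed intervals were not resolved, and reads per gene were not recovered from the normalized values.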

Other observations

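Markers shared by excitatory neurons of all layers were also read. Of 4 such genes, 3 were higher and 1 lower in TG, the median log2 fold change being 0.044, with 0 past the threshold by limma. The sign of this median turned without TG-3 (-0.054), WT-1 (-0.023) or WT-2 (-0.041), and it was 0.13 without TG-2. For 3 of the 4 the library numbered 3 was the highest in both genotypes. *Slc17a7*, the vesicular glutamate transporter of cortical neurons, had 43582 ± 1823 normalized counts in TG and 39671 ± 406 in WT (SD, n = 3), with no overlap between the genotypes, as in 6.02% of all tested genes. *Camk2a*, a kinase of excitatory synapses, had 116681 ± 11146 in TG and 113020 ± 11865 in WT.

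Of 5 genes of the claustrum, which lies deep to the cortex and shares markers with layer 6b, 3 were higher and 2 lower in TG, the median log2 fold change being 0.0048, with 0 past the threshold. Its sign turned without TG-3 (-0.062), WT-1 (-0.026) or WT-2 (-0.022). Their sums were 2983 to 3663 normalized counts in TG and 2968 to 3856 in WT, and the highest sum of each genotype was in the library numbered 3. *Nr4a2*, a nuclear receptor of claustrum and subplate neurons, had 781.5 ± 271 normalized counts in TG and 876.9 ± 419 in WT (SD, n = 3).

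The balance of layer 5 against layer 6 genes within a library was also read. The log2 ratio of *Fezf2* to *Tle4* was -0.335, -0.744 and 0.0614 in TG-1 to TG-3 and -0.536, -0.63 and -0.014 in WT-1 to WT-3. It separated the libraries numbered 3 from the other 4 and not the genotypes, whose means were -0.339 ± 0.403 in TG and -0.394 ± 0.332 in WT (SD, n = 3). The log2 ratio of *Bcl11b* to *Syt6* was 1.54, 1.35 and 2.03 in TG and 1.42, 1.2 and 1.26 in WT. The genotypes overlapped, with TG-2 below WT-1, while TG was above WT at each of the 3 replicate numbers. The log2 ratio of *Fezf2* to *Syt6*, which shares *Syt6*, was 0.767, 0.364 and 1.51 in TG and 0.584, 0.356 and 0.711 in WT. It was higher in TG at numbers 1 and 3 and almost equal at number 2. Both ratios over *Syt6* hold the deep-layer gene with the largest difference between genotypes, so they restate that difference in part. Only these 3 ratios were read, chosen with earlier results of these data known. None of them was tested.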
